A study of Mus musculus with 14 samples.

Results

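Prolactin and related hormones and cytokines signal to the cell nucleus through a short chain of proteins. The hormone binds its receptor, here the prolactin receptor (Prlr), a JAK kinase bound to the receptor becomes active, and the transcription factors STAT5A and STAT5B are phosphorylated, pair up and bind DNA. Cish and the SOCS genes encode proteins that bind activated receptors or kinases and damp the signal, and several of them are themselves transcribed in response to STATs. In the mammary gland this chain is known for driving alveolar growth in pregnancy and milk protein synthesis in lactation.

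The genes asked for were Prlr, Stat5a, Stat5b, Socs1, Socs2, Socs3 and Cish, 7 in all, and their members on the array were taken as every probe set whose annotated gene symbol is one of these names. The annotation named 8 probe sets of 6 of these genes among the 12488 on the array. The expression of Prlr was not analysed here. All 8 passed the filter that kept 8616 probe sets for testing. The Socs3 probe set 92232_at exceeded the filter level on only 6 of the 14 arrays. Its group means were highest in adjacent and wild-type gland, so its passing was not independent of the groups later compared.

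The arrays measured RNA of mammary tissue from mice carrying the neu oncogene, a form of Erbb2, behind the mouse mammary tumor virus (MMTV) promoter, which is active mainly in mammary epithelium, and from wild-type mice. The labels give 5 MMTV-neu tumors (22, 24, 26, 50 and 52), a further 2 MMTV-neu tumors set apart as set B (80 and 81), 4 MMTV-neu glands around a tumor, described as preneoplastic (adjacent glands 23, 25, 49 and 51), and 3 wild-type gland samples (pools 40, 41 and 42), 14 arrays in all. Each wild-type sample pooled RNA of 5 mice of a mixed FVB and CF-1 background: pool 40 was from mice of 31 weeks with 87.5% FVB and 12.5% CF-1, and pools 41 and 42 from mice of 41 weeks with 97% FVB and 3% CF-1. The labels used here give no age or strain for the transgenic mice and call the controls age-matched. They do not state which gland surrounded which tumor or whether the tumors and glands came from separate mice, so a p-value measures only the spread between these samples. They also give no pooling for the transgenic samples. The spread between pools of 5 mice and that between transgenic samples may thus not be alike. This bears on the overlap of groups and on an error shared by all groups. The stated aim was to find early changes in tumor formation by neu, and set B served to see whether changes in the first tumors recurred.

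The deposited intensities had nearly the same trimmed mean on each array (1500.7 to 1500.9), and no 2 arrays were identical. Array lots, which the labels list, overlapped with the groups: lot 2001815 held tumors 22, 24 and 26 and glands 23 and 25, lot 2004907 held pool 40 and glands 49 and 51, and no lot held both tumors and wild-type pools. Pools 41 and 42 shared a lot with no other group, and likewise tumors 50 and 52. In a fit that gives each lot its own level (lot as a fixed block), these arrays do not inform a difference between groups. Tumors are then set against pool 40 alone, by way of the adjacent glands. A call lost with that block cannot be told from one lost for want of arrays. Adipocyte markers were present in wild-type gland, with 9 marker genes summing to 183730 to 265970 intensity units per array, against 90042 to 158140 in adjacent gland, 4345 to 9767.7 in tumors and 5221.9 to 6177.5 in set B. The sum of 14 luminal epithelial markers was 47372 to 51004 in wild-type gland, 53976 to 88964 in adjacent gland, 81216 to 120830 in tumors and 75863 to 103580 in set B. A separate list of 6 markers of hormone-sensing luminal cells went the other way. Its sum was 7644.2 to 10185 in wild-type gland, 4424.2 to 9747.6 in adjacent gland, 802.6 to 1829.3 in tumors and 677.8 to 889.4 in set B. Of these markers 3 passed the filter, with a median log2 difference of -3.03 between tumors and wild-type gland. In bulk tissue, fewer cells of a type and less RNA per cell cannot be told apart. The log2 ratio of the 3′ to the 5′ probe set of actin, a sign of RNA quality, was 0.08 to 0.76 in tumors, 0.14 to 0.21 in set B, 0.38 to 1.52 in adjacent glands and 0.90 to 1.51 in wild-type pools. That of Gapdh was -0.25 to 0.43 in tumors, -0.50 to -0.28 in set B, -0.27 to 0.27 in adjacent glands and 0.11 to 1.48 in pools, pool 42 being the highest. The part of RNA quality in the results was not tested.

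In tumors, Socs2 was 14.9-fold higher than in wild-type gland, while 1 of the Socs3 probe sets was lower, and neither Stat5a, Stat5b, Cish nor Socs1 passed the test. Of the 8 probe sets, 1 was called higher and 1 lower in tumors against wild-type gland. Over all probe sets tested, 29.9% were called in this comparison, 15.8% higher and 14.1% lower, so the count among these genes was near the background. A probe set was called at an adjusted p under 0.05 from limma with Benjamini-Hochberg adjustment over all 8616 probe sets, and that rule holds throughout. Tumors and wild-type pools did not overlap for 3 of the 8 probe sets, beside 34.8% over all probe sets. In adjacent against wild-type gland limma called 0 of 8, beside 1.17% called over all probe sets, and 2 did not overlap, beside 14.4%. In that comparison 2 of the 8 had an unadjusted p under 0.05, beside 1273 of all 8616 probe sets. Tumors against adjacent gland gave 2 of 8 called, beside 14.4%, and 1 with no overlap, beside 12.8%. The comparisons of tumors and of adjacent gland with wild-type gland share the 3 wild-type pools.

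**Figure D1:**
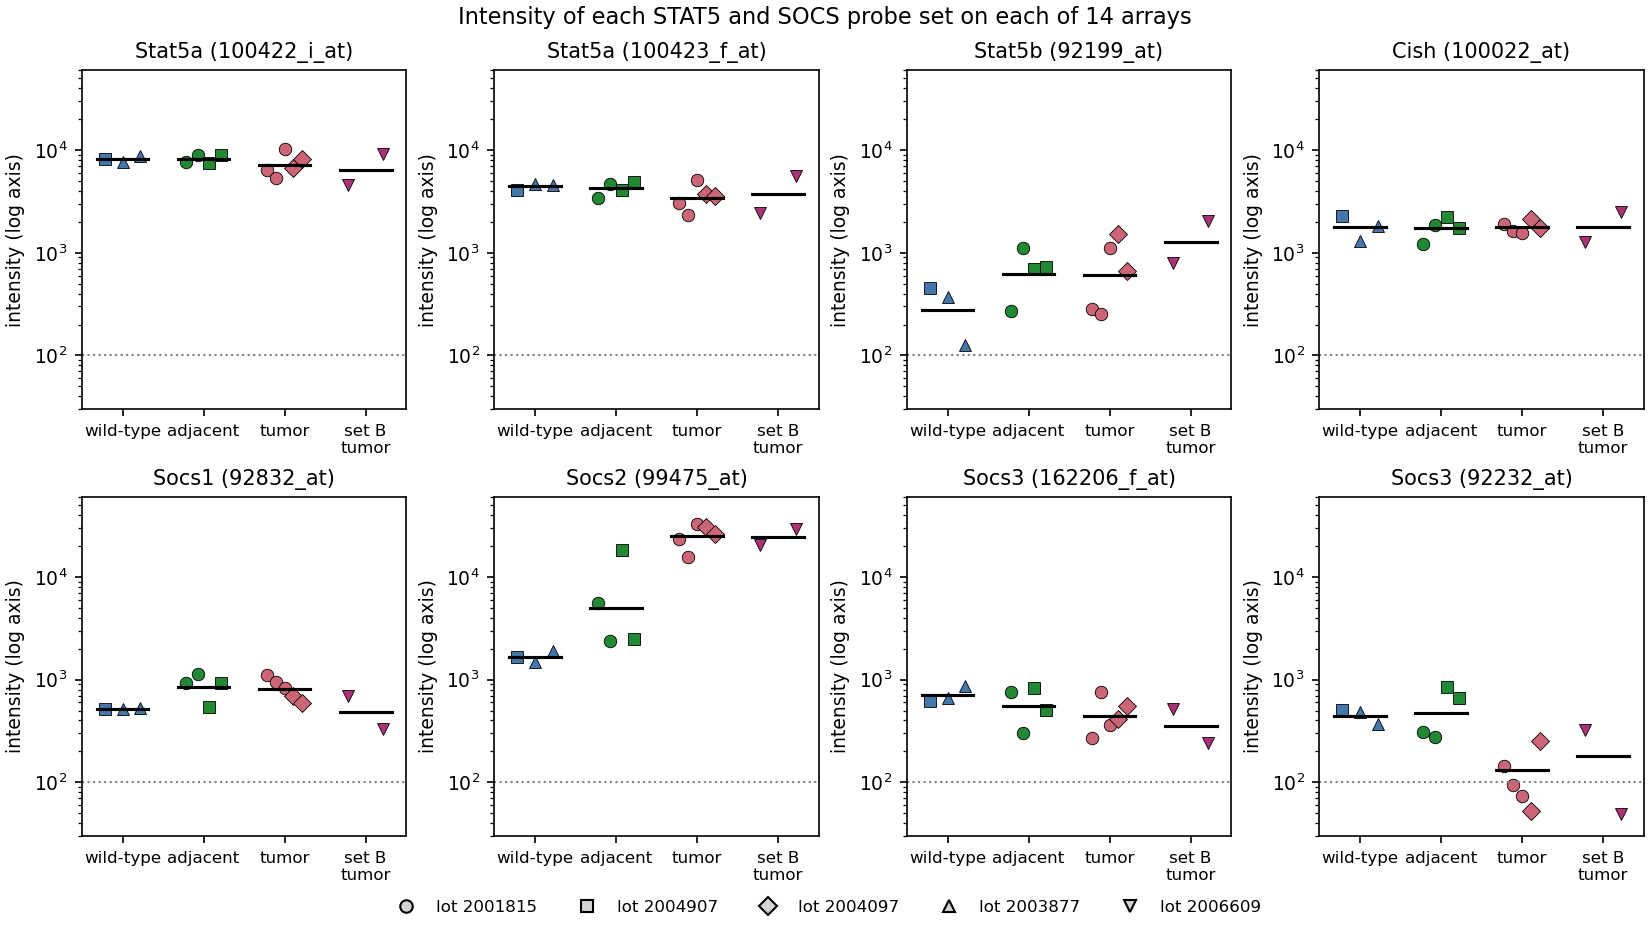
Deposited intensity (log axis) of each of the 8 probe sets on each of the 14 arrays, by group, with 1 point per array and a bar at the geometric mean. Socs2 stands above 15679 on all tumor and set B arrays and under 1906 in the 3 wild-type pools, with gland 49 at 18208.6, while Stat5a and Cish lie at like levels in all 4 groups.

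Socs2 encodes an inhibitor known above all for damping growth hormone signaling through JAK2 and STAT5. Its intensity (probe set 99475_at) was 1662.3, 1482.2 and 1905.6 in wild-type pools 40, 41 and 42. It was 23417.5, 15679.3, 32898.4, 30603.2 and 26433.5 in tumors 22, 24, 26, 50 and 52. Every tumor lay above every wild-type pool, and the lowest tumor was still several times the highest pool. The geometric means were 25000 and 1674, a log2 difference of 3.90 ± 0.49 (SE, 5 tumors against 3 pools; limma, adjusted p = 2.07e-05). The 95% interval of the difference ran from 2.87 to 4.93. Socs2 was called in all 19 alternative settings of this comparison, with differences from 3.80 to 4.68 and adjusted p up to 0.0387, the largest being with array lot as a fixed block.

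The adjacent glands differed widely from each other in Socs2. Gland 49 had 18208.6, gland 23 had 5533.1, gland 51 had 2505.0 and gland 25 had 2377.8. All 4 lay above the wild-type pools, but gland 49 was in the range of tumors, above tumor 24, while glands 25 and 51 were not far above the highest pool. The difference between adjacent and wild-type gland was 1.56 ± 0.51 on the log2 scale (SE, 4 glands against 3 pools), a 2.96-fold ratio with an interval of 0.48 to 2.65 on the log2 scale, and was not called (limma, adjusted p = 0.151). Without gland 49 it was 0.94 (adjusted p = 0.192), and over all 18 alternatives, none of which called it, adjusted p ran from 0.0678 to 0.794. Tumors were higher than adjacent glands by 2.34 ± 0.45 (SE, 5 against 4; adjusted p = 0.00187), called in all 20 alternatives with differences from 1.98 to 2.96. Within lot 2001815, which holds 3 tumors and 2 adjacent glands, this difference was 2.66 (adjusted p = 0.0256). Lot as a fixed block gives the same difference, since only this lot holds both groups, so these alternatives are not separate checks.

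On a scale where the wild-type mean is 0 and the tumor mean is 100, Socs2 in glands 23, 25, 49 and 51 stood at 44.2, 13.0, 88.3 and 14.9. The same position was computed for the 812 probe sets called at least 2-fold higher in tumors than in wild-type gland. Their medians were 58.5, 50.2, 57.5 and 32.5 in these glands, so gland 49 was above its own median with Socs2 and the other 3 were below theirs. In gland 49 the middle part of those 812 probe sets, between the quartiles, ran from 33.4 to 77.9. The luminal marker sum moved with Socs2 across the 4 glands: it was 53976 in gland 25, 63954 in gland 51, 78905 in gland 23 and 88964 in gland 49, and gland 49 had the highest value of both. Its part in the Socs2 values was not tested. Of 14 luminal markers on the array, 9 were called higher and 1 lower in tumors, with a median difference of 1.14 on the log2 scale against 3.90 for Socs2.

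**Figure D2:**
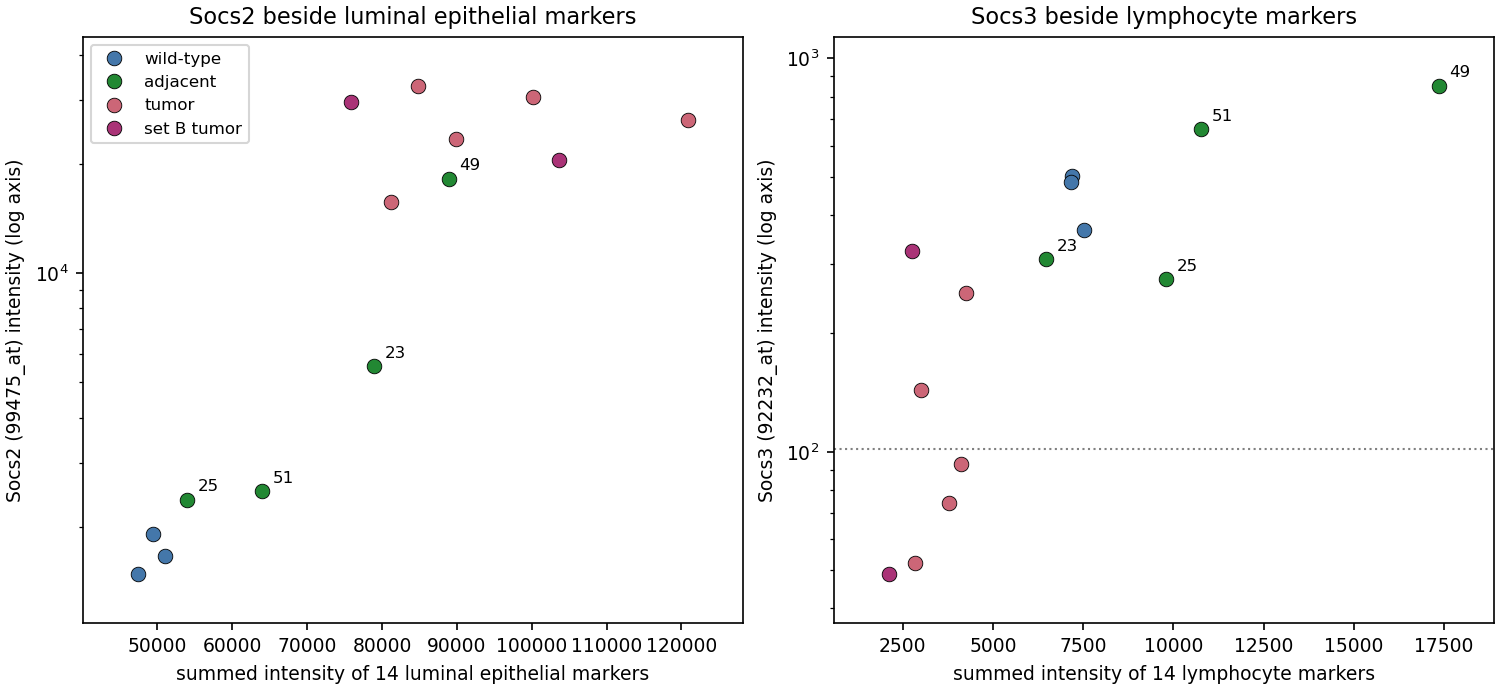
Left: Socs2 intensity against the summed intensity of 14 luminal epithelial markers. Right: Socs3 intensity (probe set 92232_at) against the summed intensity of 14 lymphocyte markers, 1 point per array, colored by group, with adjacent glands numbered and intensity on a log axis. Gland 49 has the highest sum of either marker list among the adjacent glands and the highest Socs2 and Socs3 of these glands.

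Socs3 encodes the inhibitor best known for acting on gp130, the shared receptor chain of the interleukin-6 family, and is a common transcriptional target of STAT3. Its 2 probe sets differed in what they showed. With probe set 92232_at, wild-type pools 40, 41 and 42 had 503.2, 484.3 and 366.3 and adjacent glands 23, 25, 49 and 51 had 309.1, 275.1, 853.3 and 660.8. Tumors 22, 24, 26, 50 and 52 had 143.6, 93.1, 74.1, 52.1 and 253.4. All 5 tumors lay below every wild-type pool and every adjacent gland, and tumors 24, 26 and 50 were under the floor of 101 (101.42) that was applied before taking logs, so the fitted differences take the floored values as measured.

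The floored geometric mean of 92232_at was 130.6 in tumors against 446.9 in wild-type gland, a difference of -1.78 ± 0.51 on the log2 scale (SE, 5 against 3; limma, adjusted p = 0.0148). Against adjacent gland, with a mean of 467.9, it was -1.84 ± 0.46 (5 against 4; adjusted p = 0.0131). Adjacent and wild-type gland differed by 0.07 ± 0.53 (adjusted p = 0.969). These calls depended on the setting. With lot as a fixed block the tumor difference from wild-type gland was -0.78 (adjusted p = 0.734), and without pool 40 or pool 41 it was -1.69 (adjusted p = 0.0555) or -1.72 (adjusted p = 0.0562). Over the 19 alternatives of that comparison adjusted p ran from 0.00815 to 0.734 and 14 kept the call. Against adjacent gland the call was lost within lot 2001815, where the difference was -1.36 (adjusted p = 0.187), and without gland 51, where it was -1.68 (adjusted p = 0.0512).

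The other Socs3 probe set, 162206_f_at, had 613.6, 657.6 and 859.4 in wild-type pools and 270.4, 755.9, 361.6, 409.6 and 558.9 in tumors 22, 24, 26, 50 and 52. Tumor 24 lay among the pools, and the difference of -0.67 ± 0.41 was not called (adjusted p = 0.231). In adjacent glands 23, 25, 49 and 51 it gave 750.6, 303.5, 831.2 and 510.7, which overlapped both other groups. The suffix f in a probe set name on these arrays marks probes that can match other members of a sequence family. The sum of 14 lymphocyte markers was 7177.7 to 7537.9 in wild-type pools, 6469 in gland 23, 9810.7 in gland 25, 10778 in gland 51, 17354 in gland 49 and 2833.7 to 4262.5 in tumors. In tumors 5 to 7 of these 14 markers were under the floor, against 1 to 5 in wild-type pools. Of the list's 5 tested genes, 1 was called lower in tumors, the T cell and stromal surface gene Thy1, at 398.9 against 3347, and the median difference of the 5 was -0.17. Without Thy1 the sum was 3309.8 to 4392.2 in pools, 2345.7 to 3736.8 in tumors and 3375 to 13188 in adjacent glands, so pools and tumors overlapped and gland 49 was still the highest. Lymphocyte markers were 1 of 8 marker lists counted. In tumors against wild-type gland, 9 of 9 tested adipocyte, 7 of 9 endothelial and 6 of 7 basal markers were called lower. So were 8 of 10 muscle markers, with 1 higher, and 3 of 3 hormone-sensing luminal markers. Of macrophage markers 1 of 9 was higher and 1 lower, and of luminal markers 9 of 14 were higher and 1 lower. Over all named genes 15.8% were called higher and 14.7% lower. The part of any of these cells in the Socs3 values was not tested.

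Windows of 250 bases before the gene start were read from RefSeq (GRCm38.p6) for Cish, Prlr, Socs1, Socs3, Stat5a and Stat5b, 10 windows of 6 genes. No window was matched for Socs2. They were searched for TTCNNNGAA, the core that STAT5 and other STATs are known to bind, which is its own reverse complement and so reads alike on both strands. Over all 32851 windows of the same length, 7.02% held it. Among the 10 windows it was found in that of Socs3, as TTCTTAGAA starting 154 bases before the gene start, and in 1 of 3 for Prlr, as TTCTAGGAA starting 110 bases before it. The Socs3 window, for the gene with the lower probe set in tumors, and the Cish window, for a textbook STAT5 target, are shown 5′ to 3′ along the gene's strand, with the motif in capitals. A match is a description of letters and not a measured binding site, and no match says only that these letters were not in that window.
Socs3, minus strand of chr11:117969367-117969616: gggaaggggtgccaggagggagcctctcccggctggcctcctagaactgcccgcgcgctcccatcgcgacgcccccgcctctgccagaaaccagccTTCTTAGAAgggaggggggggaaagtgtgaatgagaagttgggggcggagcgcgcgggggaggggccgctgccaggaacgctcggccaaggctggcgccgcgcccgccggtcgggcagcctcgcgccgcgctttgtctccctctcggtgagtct
Cish, plus strand of chr9:107296409-107296658: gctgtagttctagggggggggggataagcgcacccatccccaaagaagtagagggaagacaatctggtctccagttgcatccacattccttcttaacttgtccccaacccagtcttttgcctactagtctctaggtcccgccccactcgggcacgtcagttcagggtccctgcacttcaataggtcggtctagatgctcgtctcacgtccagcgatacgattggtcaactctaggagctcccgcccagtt

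Cish encodes a SOCS family protein that is a direct transcriptional target of STAT5 and damps prolactin, growth hormone and cytokine receptors. Probe set 100022_at had 2299.7, 1307.3 and 1824.5 in wild-type pools, 1212.5, 1867.4, 2228.8 and 1760.4 in adjacent glands 23, 25, 49 and 51, and 1899.3, 1637.3, 1554.4, 2137.1 and 1728.0 in tumors 22, 24, 26, 50 and 52. The pools alone spanned nearly the whole range of the other groups. The difference between tumors and wild-type gland was 0.01 ± 0.26 on the log2 scale, with an interval of -0.54 to 0.57 (5 against 3; limma, adjusted p = 0.977). Changes up to these bounds could not be told from no change with these arrays. Cish was called in 0 of 6 comparisons, nor in any alternative.

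Socs1 encodes an inhibitor that binds JAK kinases directly and is known for restraining interferon signaling. Its probe set 92832_at gave 513.7, 521.5 and 526.9 in wild-type pools, a very narrow range. Adjacent glands 23, 25, 49 and 51 had 926.1, 1141.5, 536.5 and 934.7, and tumors 22, 24, 26, 50 and 52 had 1111.9, 942.5, 824.9, 689.4 and 591.0. All adjacent glands and all main tumors were above the pools, gland 49 by the least. The difference was 0.71 ± 0.33 for adjacent gland (4 against 3; limma, adjusted p = 0.327; unadjusted p = 0.0455) and 0.64 ± 0.31 for tumors (5 against 3; adjusted p = 0.137), and neither was called in any alternative. The model takes its error from all groups, so the narrow range of the 3 pools did not count as their own error. In set B, tumor 80 had 687.9 and tumor 81 had 332.4, on either side of the pools.

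The transcription factor genes came next in the chain. Stat5a is the STAT5 gene known to be needed most for mammary alveolar development, and its neighbor Stat5b encodes a closely related protein. The Stat5a probe set 100422_i_at had 8122.9, 7612.2 and 8687.7 in wild-type pools, 7727.6, 9020.6, 7428.6 and 8989.0 in adjacent glands 23, 25, 49 and 51, and 6360.7, 5367.0, 10358.9, 6681.2 and 8251.8 in tumors 22, 24, 26, 50 and 52. Tumors lay on both sides of the pools. The tumor difference was -0.17 ± 0.23 on the log2 scale (interval -0.66 to 0.32; limma, adjusted p = 0.604) and that of adjacent gland 0.02 ± 0.24. The other Stat5a probe set, 100423_f_at, ran from 4083.5 to 4692.0 in pools, 3442.2 to 4852.3 in adjacent glands and 2352.5 to 5113.3 in tumors, with a tumor difference of -0.36 ± 0.26 (adjusted p = 0.325). Both probe sets were highest in tumor 26 and lowest in tumor 24 among the 5 main tumors. Whether either also picks up Stat5b RNA was not tested.

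Stat5b (92199_at) had 452.4, 371.9 and 126.1 in wild-type pools 40, 41 and 42, a wide range. Adjacent glands 23, 25, 49 and 51 had 271.1, 1101.0, 693.3 and 733.2, and tumors 22, 24, 26, 50 and 52 had 281.6, 255.6, 1114.6, 1526.0 and 671.9. Tumors 22 and 24 and gland 23 lay among the pools and the others above them. The difference was 1.13 ± 0.63 for tumors (interval -0.21 to 2.47; limma, adjusted p = 0.192) and 1.17 ± 0.66 for adjacent gland (adjusted p = 0.432), and neither was called. Without pool 42, the lowest pool, they were 0.56 (adjusted p = 0.595) and 0.61 (adjusted p = 0.8), and with lot as a fixed block 0.32 (adjusted p = 0.954) and 0.66 (adjusted p = 0.999). In set B, tumors 80 and 81 had 788.2 and 2030.3, and the difference from wild-type gland was 2.19 ± 0.79 (2 against 3; adjusted p = 0.0563).

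**Figure D3:**
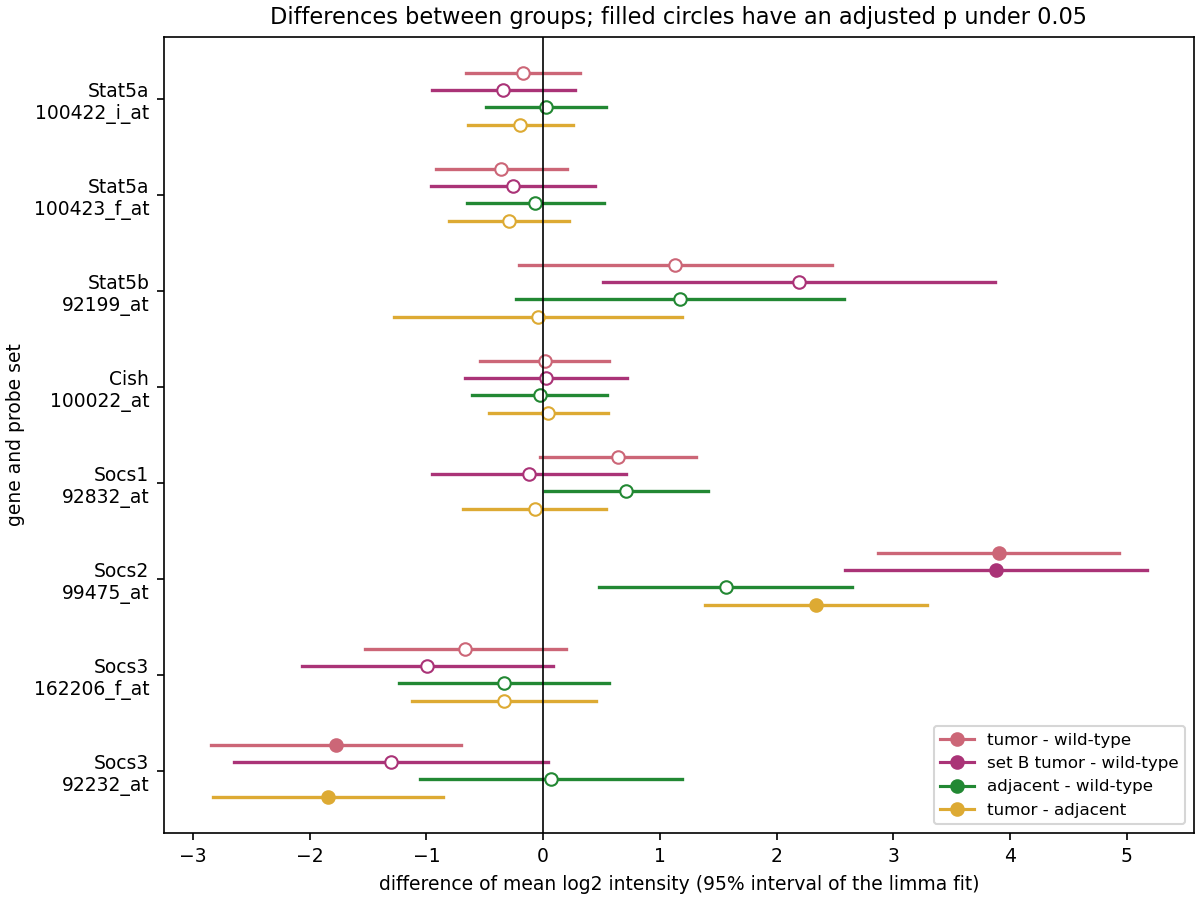
Log2 difference and 95% interval for the 8 probe sets, from the limma fit over all 14 arrays, with filled symbols where the adjusted p was under 0.05. Drawn are tumors, set B and adjacent gland against wild-type gland, and tumors against adjacent gland. Socs2 is at 3.90 in tumors and 3.88 in set B against wild-type gland, and the Socs3 probe set 92232_at at -1.78 in tumors, while the intervals of Stat5a and Cish include 0 in all comparisons drawn.

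Set B gave Socs2 at the same level as the main tumors. Tumors 80 and 81 had 20499.2 and 29603.4, inside the range of the other 5, and the difference from wild-type gland was 3.88 ± 0.61 (2 against 3; limma, adjusted p = 2.88e-04). Set B and the main tumors differed by -0.02 ± 0.56, with an interval from -1.21 to 1.16. Of the 8 probe sets, 1 was called in set B against wild-type gland, beside 23.2% of all probe sets, and 1 against adjacent gland, beside 14.3%. Both calls were Socs2. The call against adjacent gland, at 2.32 ± 0.58 (adjusted p = 0.0147), was lost without tumor 80 (adjusted p = 0.0639), without tumor 81 (adjusted p = 0.144), with no filter and with only these groups in the fit. Between set B and the main tumors limma called 0 of 8 and 0 of all probe sets (0%), with 0 and 932 at an unadjusted p under 0.05. For Socs3, 92232_at had 323.1 in tumor 80 and 48.9 in tumor 81, both below the pools, and the difference of -1.30 ± 0.63 was not called (adjusted p = 0.156). Set B was on an array lot of its own, so lot and set cannot be told apart.

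Across all 7 tumors Stat5b was the most variable of these genes and Cish and Socs2 the least. Stat5b ran from 255.6 to 2030.3, a 7.94-fold range, with an SD of 1.15 on the log2 scale, and 97.5% of the probe sets tested had a smaller SD. Its spread was also wide outside tumors, with an SD of 0.99 in wild-type pools and 0.86 in adjacent glands. Socs2 spanned 2.10-fold (SD 0.38) and Cish 1.98-fold (SD 0.32), beside a median SD of 0.40 over all probe sets tested. Socs1 spanned 3.35-fold and the Stat5a probe set 100422_i_at 2.29-fold.

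The hormones and receptors upstream of STAT5 formed a list of 17 genes, of which 15 were on the array and 9 passed the filter. In tumors 0 were called higher and 3 lower, with a median difference of -0.25 on the log2 scale, beside 15.8% higher, 14.7% lower and a median of 0.13 over the 6397 named genes tested. The largest fall was that of Ghr, the growth hormone receptor, which signals through JAK2 and STAT5 and is abundant in fat cells. Its intensity was 8758.6, 9831.3 and 9792.7 in wild-type pools, 3499.1, 2418.3, 2206.1 and 4757.3 in adjacent glands 23, 25, 49 and 51, and 401.8 to 728.6 with a median of 618.5 in tumors. The 3 groups did not overlap. Ghr fell by 4.09 ± 0.27 in tumors (5 against 3; limma, adjusted p = 2.11e-08), called in all 19 alternatives. In adjacent gland it fell by 1.62 ± 0.28 (4 against 3; adjusted p = 0.0124), a call that was lost with lot as a fixed block (adjusted p = 0.541), without pool 41 (adjusted p = 0.0598) and without pool 42 (adjusted p = 0.0731). The adipocyte markers fell beside Ghr, with 9 of 9 called lower in tumors, and their part was not tested.

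Epor, the erythropoietin receptor, fell by 1.27 ± 0.46 (adjusted p = 0.0499) and Csf2rb2, a cytokine receptor chain, by 0.84 (adjusted p = 0.0125). The Epor call was at the threshold and held in 5 of 19 alternatives, leaving out tumor 26 being the only removal of 1 array that kept it. That of Csf2rb2 was lost without pool 41 (adjusted p = 0.0576) and with lot as a fixed block (-0.39, adjusted p = 0.763). Prl, the prolactin gene itself, was 502.2 to 1175.1 on the 5 arrays of lot 2001815 and 81.8 to 461.0 on the other 9. Some of the latter values were under the floor of 101.42. The tumor difference of Prl, 1.64 ± 0.70, was not called (adjusted p = 0.0923) and was -0.56 with lot as a block. Lot and group overlapped, and the part of each in Prl was not tested.

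Of 6 JAK and other STAT genes tested, limma called 0 in tumors against wild-type gland, beside 15.8% higher and 14.7% lower over all named genes. Jak1 had a difference of 0.43 (adjusted p = 0.119), Stat3 0.11 (adjusted p = 0.722) and Stat6 -0.42 (adjusted p = 0.0839). Jak2, the kinase bound to the prolactin and growth hormone receptors, was 729.5, 902.4, 761.8, 868.7 and 1012.1 in tumors 22, 24, 26, 50 and 52 and 1303.6, 1158.9, 1480.9 and 1362.3 in adjacent glands 23, 25, 49 and 51. The groups did not overlap, and Jak2 was lower in tumors than in adjacent gland by 0.64 on the log2 scale (-0.64 ± 0.19; limma, adjusted p = 0.0314). That call held in 10 of 20 alternatives, and leaving out tumor 22, tumor 26, or gland 23, 49 or 51 ended it, with adjusted p from 0.0635 to 0.0852. It was also lost with lot as a fixed block, and over all alternatives adjusted p ran up to 0.171. Against wild-type gland Jak2 differed by -0.35 ± 0.20 (adjusted p = 0.209).

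Further inhibitors were counted in the same way, beside 15.8% higher and 14.7% lower over all named genes. In a list of further SOCS genes and their ubiquitin ligase partners, 1 of 5 tested genes was called in tumors. This was Socs5, at 1044.1, 1023.7 and 572.9 in pools and 1199.7 to 2749.7 in tumors, a rise of 1.18 ± 0.30 (adjusted p = 0.00771). The call was lost with lot as a fixed block (0.19, adjusted p = 0.937) and without pool 42 (0.89, adjusted p = 0.0633). Among 9 tested phosphatases, PIAS proteins and other inhibitors 4 were higher and 1 lower. Ptpn2, a phosphatase that removes phosphate from JAKs and STATs, rose by 1.53 (adjusted p = 0.00206), and Ptpn1, another phosphatase, fell by 1.04 (adjusted p = 0.00779). Ptpn6 was higher by 1.10 (adjusted p = 0.028), a call that held in 9 of 19 alternatives and was lost without tumor 22, 26 or 52 or pool 41 or 42. Cbl (1.57, adjusted p = 0.0384) and Pias2 (0.76, adjusted p = 0.0159) were also called higher, but both calls were lost with lot as a fixed block, which gave -0.47 for Cbl and -0.01 for Pias2. Cbl also lost its call without any of tumors 22, 26, 50 and 52 and pools 41 and 42, and Pias2 without pool 41 or 42. With the lot block Ptpn2 was at 0.26 (adjusted p = 0.91), Ptpn1 at -0.84 (adjusted p = 0.555) and Ptpn6 at 1.85 (adjusted p = 0.191), none of them called. Ptpn2 and Ptpn1 kept their calls whichever array was left out.

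**Figure D4:**
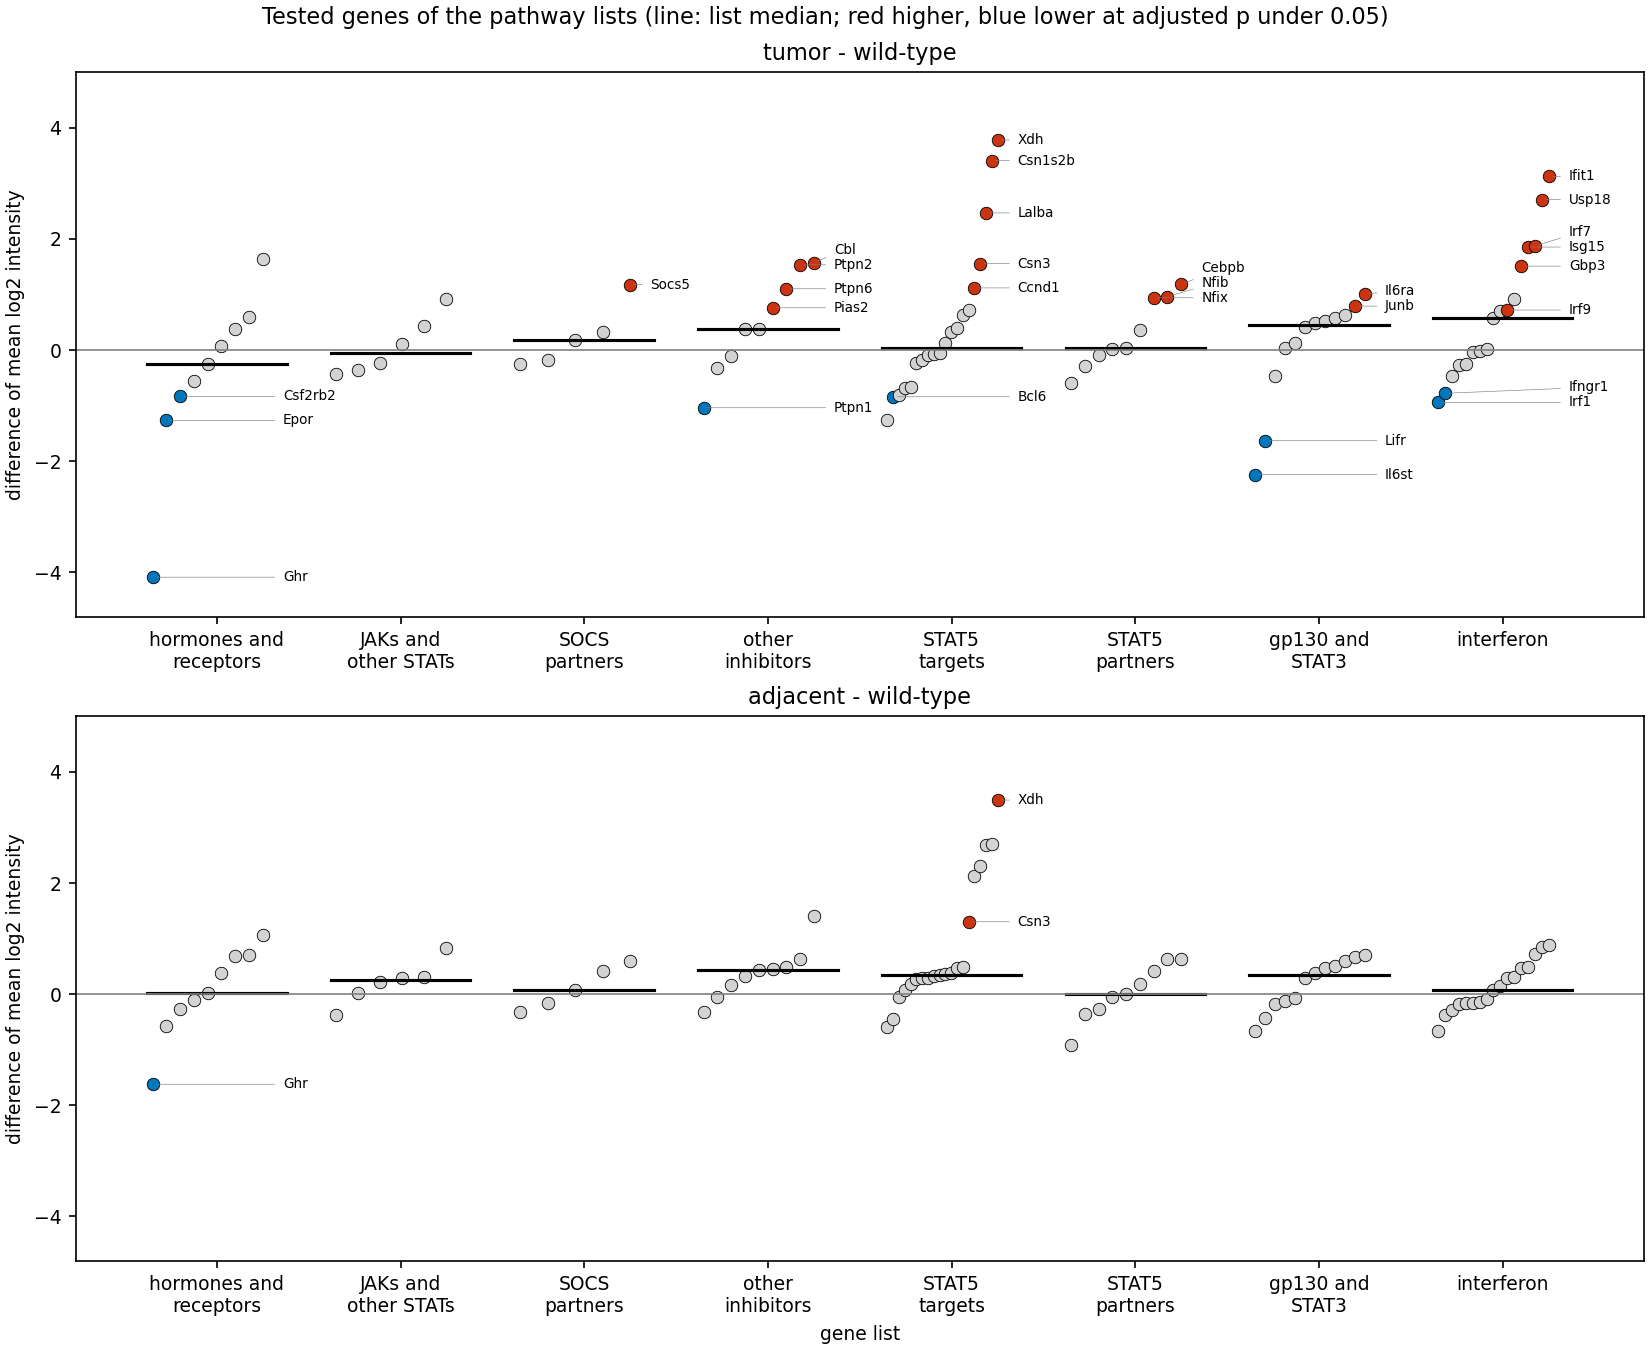
Log2 difference of each tested gene of the 8 pathway lists in tumors (top) and adjacent gland (bottom) against wild-type gland, with a bar at each list's median, genes called higher in red and genes called lower in blue. Ghr is at -4.09 in tumors, Xdh at 3.78, and the medians lie between -0.25 and 0.57 in tumors.

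Genes known to be driven by prolactin and STAT5 in the mammary gland, among them milk protein genes, were split. Of 20 tested, 5 were called higher and 1 lower in tumors, with a median difference of 0.04, beside 15.8% higher, 14.7% lower and a median of 0.13 over all named genes. Csn2, the beta-casein gene and the classical STAT5 target, had 41475.5, 43308.2 and 61736.1 in pools and 5083.0, 58170.0, 50890.9, 51605.2 and 33708.0 in tumors 22, 24, 26, 50 and 52. Tumor 22 stood far below the rest, and the difference of -0.66 ± 0.63 was not called (adjusted p = 0.455). Without tumor 22 it was -0.01 (adjusted p = 0.983). Csn3, the kappa-casein gene, was 28269.7 to 36273.7 in pools and 75539.2 to 180753.5 in tumors, with no overlap, and rose by 1.56 ± 0.26 (adjusted p = 3.50e-04). Xdh, xanthine dehydrogenase, which has a role in milk fat secretion, rose by 3.78 ± 0.60 (adjusted p = 2.09e-04), and Csn1s2b by 3.41, Lalba by 2.47 and Ccnd1, cyclin D1, by 1.12. Csn1s2b had 17.9 and 79 in pools 40 and 41, under the floor of 101.42, so its difference takes floored values as measured. Bcl6, which is known to be repressed by STAT5, fell by 0.84 (adjusted p = 0.0266), and 1 tumor overlapped the pools. The Bcl6 call was lost without tumor 22, tumor 24 or pool 41 (-0.62 and adjusted p = 0.16 for the last). The Lalba call (adjusted p = 0.0464) held in 9 of 19 alternatives and, of the 8 arrays left out in turn, only without tumor 24. With lot as a fixed block Csn3 (adjusted p = 0.053), Csn1s2b (0.151), Ccnd1 (0.34) and Bcl6 (0.489) lost their calls, while Xdh (0.001) and Lalba (0.0317) kept them. Over all 8 pathway lists, 30 genes were called in tumors against wild-type gland, and with that block 7 of them were still called and 23 were not.

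In adjacent gland, Xdh and Csn3 were the 2 genes of these 20 called against wild-type gland, both higher. Xdh was 1891.0, 1128.2, 5661.8 and 10421.7 in glands 23, 25, 49 and 51 against 231.2 to 348.4 in pools, a rise of 3.49 ± 0.63 (4 against 3; limma, adjusted p = 0.0153). Csn3 was 64243.3 to 93791.5 and rose by 1.30 ± 0.28 (adjusted p = 0.0341). Glands 49 and 51 had the highest Xdh, whereas for Socs2 gland 51 was among the low ones. The Xdh call was lost without pool 41 (adjusted p = 0.0536), pool 42 (0.0871) or gland 49 (0.0506), and the Csn3 call without any single pool or without gland 49 (adjusted p from 0.0887 to 0.113). Over all named genes 0.782% were called higher and 0.469% lower in adjacent gland. Tumors against adjacent gland gave Ccnd1 higher by 0.78 and Pim1, a kinase gene induced by STAT5, lower (-0.61), 1 of 20 each, beside 5.75% higher and 9.29% lower over all named genes. The Ccnd1 call was lost without tumor 22 or 50 or gland 25 or 51, and that of Pim1 without any of 7 of the 9 arrays. Neither was called with lot as a fixed block (adjusted p = 0.126 and 0.508), nor was Csn3 in adjacent gland (adjusted p = 0.118).

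Lists next to the STAT5 chain were counted in the same way, beside 15.8% higher, 14.7% lower and a median of 0.13 over all named genes. Of 9 tested partner factors of STAT5 at milk protein genes, 3 were higher in tumors, Cebpb by 1.18, Nfib by 0.96 and Nfix by 0.94, and 0 lower. Nfib lost its call without pool 41 (adjusted p = 0.0521), and Nfix without tumor 22, 26 or 50 or any pool. With lot as a fixed block Cebpb (adjusted p = 0.293), Nfib (0.393) and Nfix (0.382) were not called. Of 12 genes of gp130 and STAT3 signaling, on which SOCS3 acts, 2 were higher (Il6ra by 1.01 and Junb by 0.79) and 2 lower. Both higher calls were lost without tumor 22, pool 41 or pool 42, that of Il6ra also without tumor 52 and that of Junb also without tumor 50. The lower ones were both receptor chains. Il6st, which encodes gp130, was 5318.7, 4491.3 and 3895.6 in pools and 625.3 to 1703.8 in tumors and fell by 2.24 ± 0.29 (adjusted p = 2.47e-05), and Lifr, the receptor of leukemia inhibitory factor, fell by 1.63 (adjusted p = 1.39e-04). With lot as a fixed block Il6st kept its call (-2.65, adjusted p = 0.0165), and Lifr (-1.83, adjusted p = 0.0977), Il6ra (adjusted p = 0.301) and Junb (0.75) lost theirs. Markers of other cell types fell in tumors too, with 9 of 9 tested adipocyte, 7 of 9 endothelial, 6 of 7 basal and 8 of 10 muscle markers called lower (and 1 muscle marker higher), and their part in these falls was not tested. Of 17 interferon genes, on which SOCS1 acts, 6 were higher and 2 lower, with a list median of 0.57. Ifit1 rose by 3.13 ± 0.52 and Usp18 by 2.71 ± 0.65, while Irf1, a transcription factor, fell by 0.94 and Ifngr1, an interferon gamma receptor chain, by 0.78. The Irf1 call was lost without pool 41 (adjusted p = 0.0582) and that of Ifngr1 without any single pool (adjusted p from 0.0584 to 0.0889). Set B against wild-type gland gave 1 of 9 partner factors higher, and 2 of 12 gp130 and STAT3 genes lower with 0 higher. Of 17 interferon genes, 5 were higher there and 2 lower. Among hormones and receptors 3 of 9 were lower in set B, and among phosphatases, PIAS proteins and other inhibitors 2 of 9 were higher and 1 lower. Over all named genes 11.3% were higher and 12.4% lower in set B. With lot as a fixed block Ifit1 (adjusted p = 0.00867), Usp18 (0.0396) and Irf7 (0.0479) were still called higher, and Irf1 (0.444) and Ifngr1 (0.497) were not called lower.

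**Figure D5:**
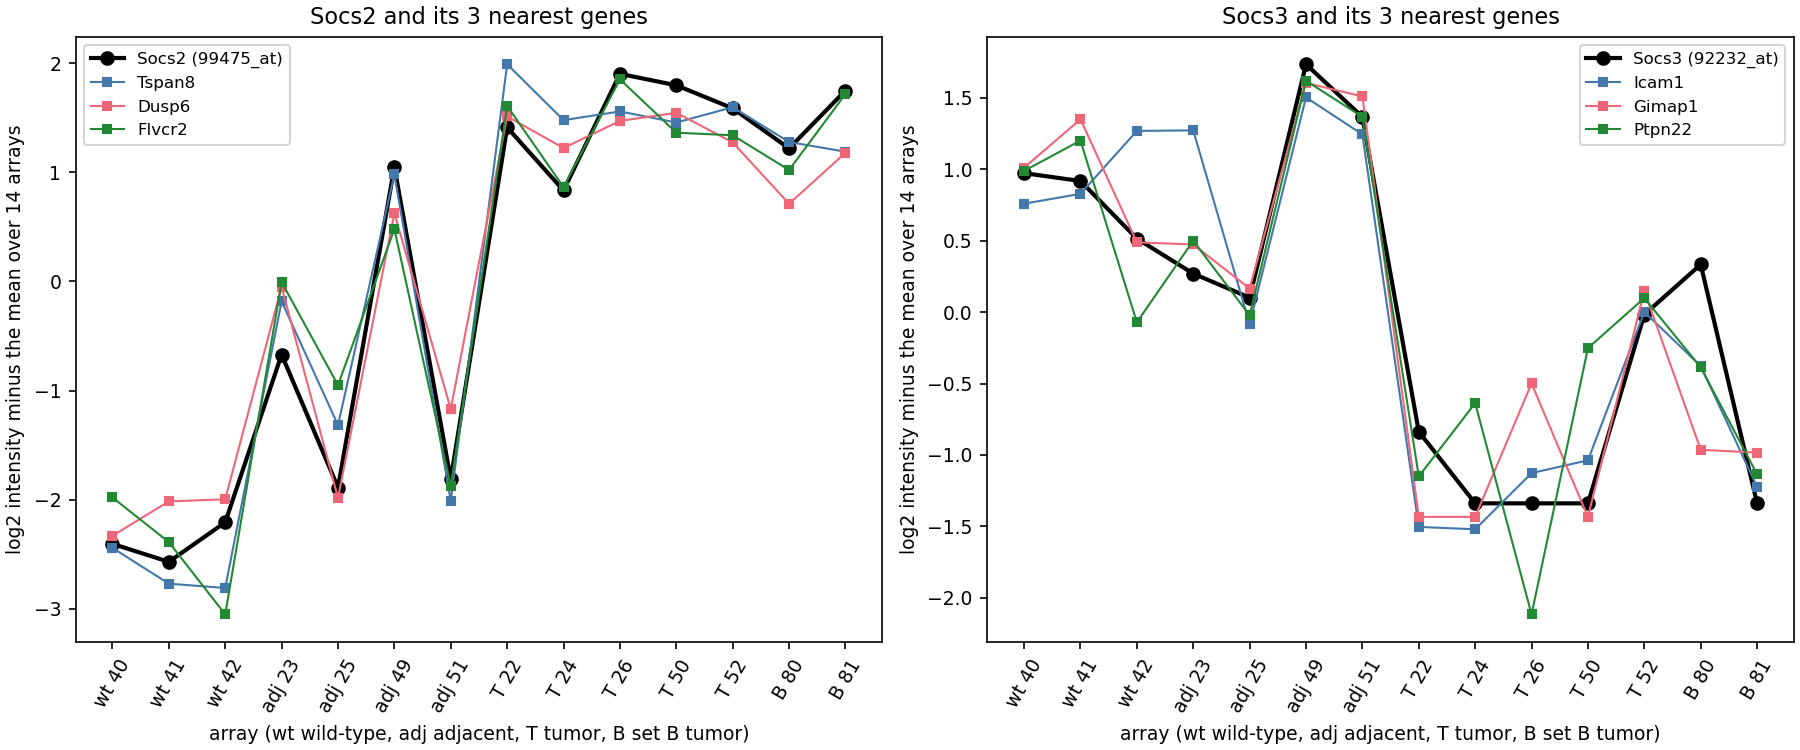
Log2 intensity of Socs2 and of Socs3 (probe set 92232_at) on each of the 14 arrays, each with the 3 genes whose pattern over the arrays was nearest, all centered on their own mean. The Socs2 group is high in all 7 tumors and in gland 49, and the Socs3 group lies above its own mean in glands 49 and 51 and below it in tumors 22, 24, 26 and 50 and set B tumor 81.

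The genes whose pattern was nearest were ranked by the root mean square difference of centered log2 intensity over the 14 arrays, among 6391 genes. Nearest to Socs2 were Tspan8, a membrane tetraspanin gene, at 0.41, Dusp6, a phosphatase gene induced by and acting on ERK, at 0.42, and Flvcr2, a transporter gene, at 0.46, against a median of 1.75 over all genes. Their geometric means rose in the same order of groups as Socs2, from 307.8 in wild-type through 1267 in adjacent gland to 6019 in tumors for Tspan8, and from 2311 through 6401 to 26500 for Dusp6. Nearest to the Socs3 probe set 92232_at were Icam1 at 0.45, Gimap1 at 0.48 and Ptpn22 at 0.50, against a median of 1.17. These 3 are best known from leukocytes or from cells at sites of inflammation. The distances used floored values. Of the 5 main tumors, 3 were under the floor for 92232_at, 3 for Gimap1, 1 for Icam1 and 1 for Ptpn22. The part of the floor in this likeness was not tested. Icam1 had geometric means of 562.4 in wild-type gland, 575.0 in adjacent gland and 141.7 in tumors. These genes were picked for their likeness over the same arrays, so their group differences are a description.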

How the data were processed

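RNA of 14 mouse mammary samples was measured on 1-color oligonucleotide arrays. The deposited table holds 1 linear intensity per probe set and array; its software and normalization are not given in the sources used here, and its shared trimmed mean (2% from each end) was taken as scaling, with no further normalization. Values under 101.42, the 20th percentile of all values, were set to that floor before log2. After 66 control probe sets were dropped, a probe set was kept if it exceeded the 40th percentile of an array on 3 or more arrays, and 8616 entered 1 limma fit (limma 3.58.1, R 4.3.3) with 4 groups and an intensity trend, and p-values are two-sided, adjusted by Benjamini and Hochberg within each comparison. Errors are the fit's standard errors, with 10 residual and 5.75 prior degrees of freedom; the number of arrays limits the precision.

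Probe sets were named by the platform annotation (10855 with 1 gene, 396 with several, 1237 unnamed), with 10839 symbols updated by gene number (GRCm38.p6). For a listed gene, the tested probe set with the highest mean stood for it; members are given by each probe set. Members, lists and tests were chosen with earlier results of these data known. From each list up to 4 called genes with the largest change were named, or 2 with the smallest p, and always Jak2, Stat3, Ghr and Csn2; the others named were chosen after their values were seen. The nearest 3 genes were taken for each member called in a comparison of tumors, adjacent and wild-type gland. The fit was tested on simulated data. Alternatives were lot blocks, fits within lots, scaling, floor, filter, trend, groups in the fit and each array left out.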

Additional observations from a re-analysis of the deposited data

How the results depend on the processing

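Of the 8 probe sets, the 2 called in tumors against wild-type gland became 1 with array lot as a fixed block, 1 with that block and lots 2004097 and 2004907 taken as 1, and 1 to 2 when single arrays were left out. Tumors against adjacent gland gave 1 with the lot block, 1 within lot 2001815, which is the same difference, and 1 to 2 without single arrays. Set B against adjacent gland gave 0 with no filter, 0 with only the 2 groups compared, and 0 to 1 without single arrays. Set B against wild-type gland gave 2, Stat5b added, with only the 2 groups compared. In every one of these losses but those of set B, the call lost was that of the Socs3 probe set 92232_at; the set B call is Socs2. With lot as a block Cbl stood at -0.47 and Pias2 at -0.0079 in tumors against wild-type gland, and Cbl at -0.00064 with the merged lots. Over all probe sets, calls in tumors against wild-type gland went from 2574 to 329 with the lot block and 894 with the merged lots, those in tumors against adjacent gland from 1239 to 572, and those in adjacent against wild-type gland from 101 to 47 (22 with merged lots, 56 within lot 2004907, 53 with no filter, 28 with only the 2 groups, and 14 to 200 when single arrays were left out). Fits of tumors within lot 2001815 gave 597 against adjacent gland, and tumors 50 and 52 against pool 40, an alternative chosen after seeing the data, gave 897. Set B against adjacent gland went from 1230 to 742 with only the 2 groups and to between 458 and 1263 without single arrays, and set B against wild-type gland from 1998 to between 1053 and 1664 without single arrays. Centering each array on its median moved the median difference of all probe sets between adjacent and wild-type gland from 0.07 to -0.10 and the share of higher calls from 61.4% to 34.8%, and for set B against adjacent gland that share went from 40.2% to 64.1%; no member gained or lost a call by it. The lot block leaves few arrays to compare within a lot and drops set B. With it, also with merged lots, pool 40 is the only wild-type array that informs a difference between groups. With lots as labeled, the block and the fit within a lot give the same difference, with another estimate of error. This holds for tumors against adjacent gland and for adjacent against wild-type gland. A random lot block (correlation 0.151) kept the Socs2 and Socs3 calls in tumors. No paired analysis was possible because the labels do not state which gland surrounded which tumor. All fits therefore took tumors and adjacent glands as independent samples, which was not tested.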
